A study of Mus musculus with 20 samples.

Results

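The genes of antigen presentation by the major histocompatibility complex (MHC) were followed as a set of 10 genes, chosen by gene name from the 55866 genes of the count table. Class I was represented by the heavy chains H2-K1 and H2-D1 and by B2m, the light chain they share. Class II was represented by the chains H2-Aa, H2-Ab1 and H2-Eb1, the peptide loading chains H2-DMa and H2-DMb1, the invariant chain Cd74 and the class II transactivator Ciita. All 10 genes were found and 9 held counts. B2m held 0 counts in all 20 libraries and could not be measured: its span (chromosome 2, 121978167 to 121983564, GRCm39, plus strand) lies 100% within that of Patl2 on the opposite strand. Class I therefore rests on H2-K1 and H2-D1.

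Class I molecules present peptides from the cytosol to CD8+ T cells and are found on nearly all nucleated cells, endothelium included. Class II molecules present peptides from the endosome to CD4+ T cells and are borne mainly by dendritic cells, macrophages and B cells, whereas endothelium can acquire them under interferon gamma. Cd74 escorts class II chains to the endosome, H2-DMa and H2-DMb1 form the exchanger that loads them, and Ciita is the coactivator on which their transcription depends.

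The libraries came from RiboTag EC mice on the C57BL/6J strain, which carry Rpl22 HA/HA and Cdh5-CreERT2, so that after tamoxifen the ribosomes of cells with an active Cdh5 promoter bear a hemagglutinin (HA) tag. Ribosome-bound mRNA was immunoprecipitated (IP) with anti-HA from a tumor homogenate, and part of the same homogenate was kept as input. All mice were female. Tamoxifen (75 mg/kg, 5 days) began when they were 3 weeks old, and at 8 weeks they were implanted in a mammary fat pad with Py8119 cells, a murine mammary carcinoma line that is 1 line in all tumors. Mice then received 6-3-A6, an antibody that blocks Notch4, at 25 mg/kg 2 times a week over 10 days, whereas controls had mouse IgG, with 5 tumors per treatment and 1 input and 1 IP library from each. The start of treatment is given as a tumor volume of about 30 mm3 in the sample protocol and 50 mm3 in the series design. All groups share the tag, the Cre, tamoxifen and tumor line, and an untreated tumor or one without Cre was not analysed here.

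Counts on genes ranged from 11881214 to 26728205 per library (median 16942643). Levels are given as CPM, counts relative to the library's total after scaling by edgeR's TMM factors. In its own comparison the study kept 6-3-A6 IP 1, 3 and 4 with control IgG IP 2, 4 and 5, and the 4 other IP libraries were set aside as outliers. In the labels of the 6-3-A6 libraries a description line names the opposite fraction from the title. Titles were followed, and 17 endothelial markers (Pecam1, Cdh5 and others) summed to 1251 to 6299 CPM in the libraries titled 6-3-A6 IP against 203 to 304 CPM in those titled input. In control IgG tumors the same sum was 1535 to 7091 CPM in IP and 228 to 320.5 CPM in input. In both treatment groups the fractions did not overlap. The 12 measured macrophage markers (C1qa, Lyz2, Csf1r and others; Itgam held 0 counts) were still present in IP, at 4551 to 7657 CPM against 8469 to 12280 CPM in input for control IgG and 3226 to 8879 CPM against 6322 to 15110 CPM for 6-3-A6. Input 4 of the 6-3-A6 group stood apart, with a TMM factor of 0.680 against 0.894 to 1.12 in the other 19 libraries, and a median chi-square per gene of 18.6 to 30.0002 against its replicates, which had 3.26 to 14.4 among themselves. Values without it, a choice made after the data were seen, are given beside the levels per kb, the paired tests and list counts, the class score, the input comparison and the correlations. In such bulk RNA, fewer cells of a type and less RNA per cell cannot be told apart.

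The promoters of members that were set against each other are shown because class I and class II genes share a promoter module, in which NF-Y binds CCAAT beside the RFX and CREB sites that Ciita (class II) and Nlrc5 (class I) act through, and because class I promoters also hold an NF-kappaB site. The 180 bases before the start of transcription are printed in the direction of the gene (RefSeq, GRCm38.p6, a different build from that of the counts). Capitals mark every match, on either strand, to 4 motifs: the NF-Y box CCAAT, which is printed as ATTGG when reversed, the core of the RFX site (AGCAAC), the core of an NF-kappaB site (GATTCCC) and the interferon element, spelled GAAA, any 2 bases and again GAAA. Of the 10 genes, 7 had a promoter entry.
H2-K1, chr17:34000334-34000513, minus strand: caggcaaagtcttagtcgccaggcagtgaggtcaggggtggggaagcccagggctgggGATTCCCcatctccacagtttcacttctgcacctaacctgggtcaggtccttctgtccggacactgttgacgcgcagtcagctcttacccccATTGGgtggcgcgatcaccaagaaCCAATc
H2-D1, chr17:35262914-35263093, plus strand: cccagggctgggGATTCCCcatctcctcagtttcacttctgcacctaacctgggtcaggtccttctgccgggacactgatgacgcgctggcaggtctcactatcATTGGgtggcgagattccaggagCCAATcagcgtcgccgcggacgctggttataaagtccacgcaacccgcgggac
H2-Aa, chr17:34287824-34288003, minus strand: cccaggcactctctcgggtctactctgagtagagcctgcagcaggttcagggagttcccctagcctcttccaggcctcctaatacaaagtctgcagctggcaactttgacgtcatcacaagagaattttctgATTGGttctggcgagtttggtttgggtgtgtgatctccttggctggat
H2-Eb1, chr17:34305687-34305866, plus strand: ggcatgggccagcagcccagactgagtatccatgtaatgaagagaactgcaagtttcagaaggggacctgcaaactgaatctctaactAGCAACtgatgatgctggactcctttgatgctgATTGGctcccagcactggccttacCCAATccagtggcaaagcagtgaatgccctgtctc
H2-DMb1, chr17:34153011-34153190, plus strand: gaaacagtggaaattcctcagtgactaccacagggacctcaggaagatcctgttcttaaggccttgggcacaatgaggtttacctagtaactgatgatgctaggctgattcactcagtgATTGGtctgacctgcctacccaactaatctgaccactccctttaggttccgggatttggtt
In the 250 bases before the start, CCAAT was found in 33.8% of 32851 promoters, the RFX core in 12.2%, the NF-kappaB core in 2.83% and the interferon element in 2.98%. H2-K1 and H2-D1 both held the NF-kappaB core and a CCAAT on each strand. H2-Aa and H2-DMb1 held 1 reversed CCAAT that ended at positions -44 and -57 from the start. H2-Eb1 held the RFX core and CCAAT on each strand, and of the 3 class II promoters printed 0 held the NF-kappaB core in 250 bases. Among the 7 genes, only B2m held the interferon element in this exact spelling, and other spellings were not searched. H2-K1 has a further start in RefSeq, and H2-DMa has 2 starts, the upstream one with no match in 250 bases and the other with 1 reversed CCAAT. These matches are letters and were not tested for binding.

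Levels between genes were compared per kb of exon, with the caution that the deposited counts also take in introns. In control IgG input, Cd74 was highest with 1272 ± 642 CPM per kb (SD, n = 5), followed by H2-Aa with 806 ± 443.5, H2-Ab1 with 590 ± 330.1, H2-D1 with 531 ± 35.4, H2-K1 with 509 ± 49.4 and H2-Eb1 with 346 ± 197. These neighbors differed by less than the sum of their SDs. Here and below, such SDs are spreads between tumors and do not measure differences between genes within a library. In each control IgG input Cd74 lay above H2-Aa, and H2-Aa above H2-Ab1. The loading chains were lower, at 84.3 ± 37.5 CPM per kb for H2-DMb1 and 53.8 ± 18.8 for H2-DMa, and Ciita was lowest at 0.509 ± 0.427 (SD, n = 5 each). In control IgG IP Cd74 was again highest with 859 ± 383 CPM per kb, and the class I chains then ranked above H2-Ab1, H2-Aa and H2-Eb1: H2-D1 had 555 ± 181 and H2-K1 529 ± 174 CPM per kb, against 459 ± 228 for H2-Ab1, 454 ± 216 for H2-Aa and 213 ± 108 for H2-Eb1. The differences of H2-D1 and H2-K1 from H2-Ab1 and H2-Aa were within the SDs. In 6-3-A6 tumors H2-Aa had 675 ± 633.5 CPM per kb in input and 316 ± 308 in IP, and H2-D1 had 520.5 ± 352 and 499 ± 295, so that these differences too were within the SDs (n = 5 each). Without 6-3-A6 input 4 the input means were 775 ± 684 for H2-Aa and 599 ± 352 for H2-D1 (SD, n = 4 each).

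**Figure D1:**
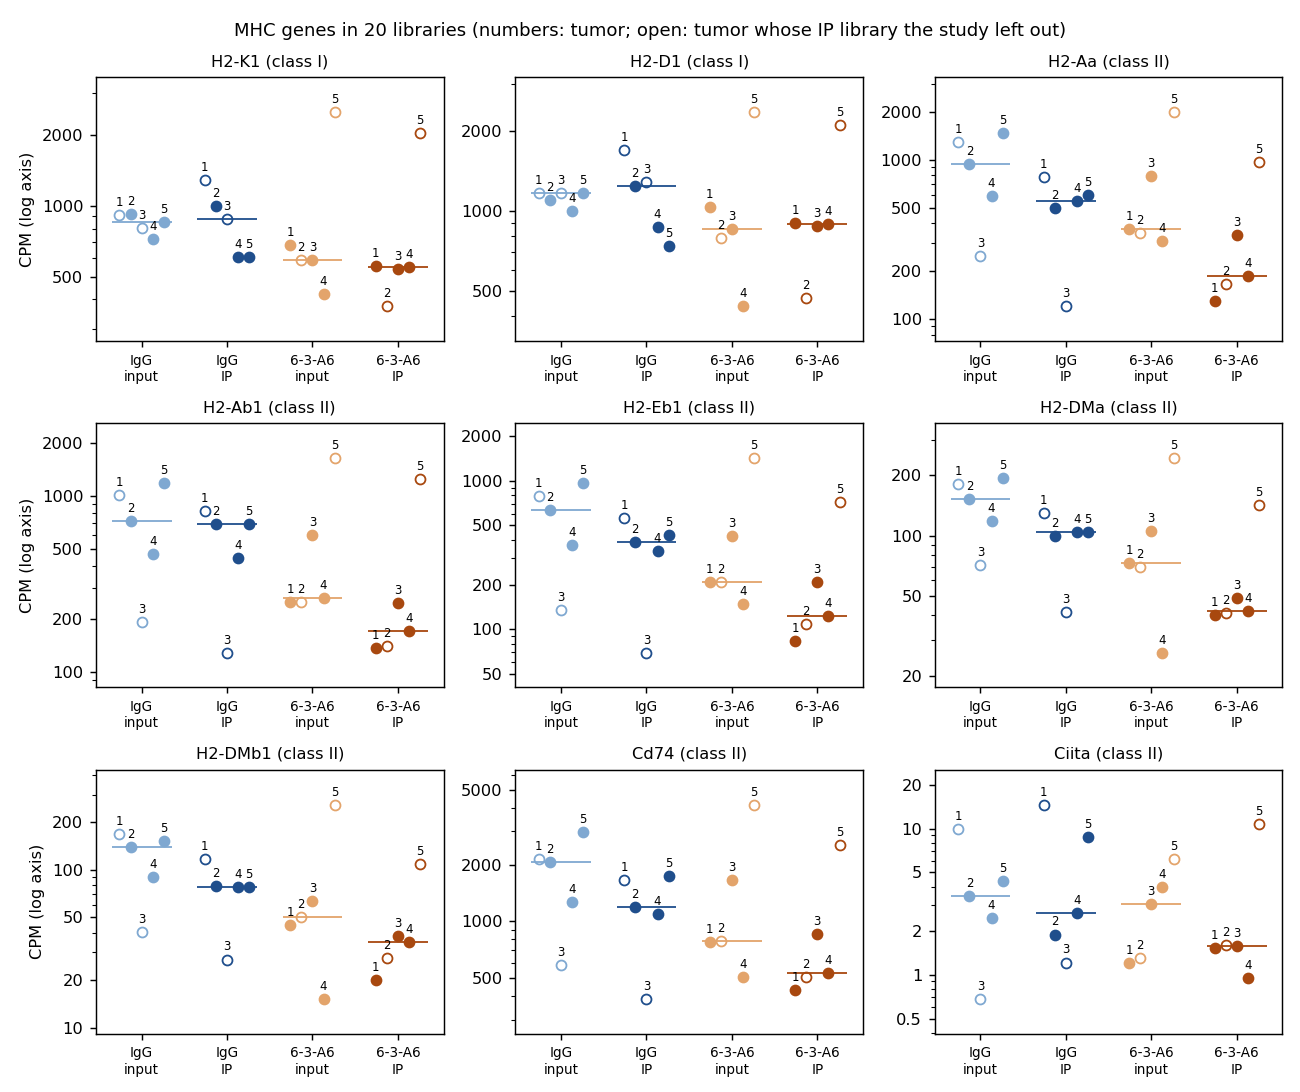
CPM (log axis) of the 9 measured genes in each library, in panels by gene and columns by group, with the tumor number at each point, the group median as a line and open points for tumors whose IP library the study left out. In the class II panels other than Ciita, 6-3-A6 tumor 5 is the highest of its group (Cd74 4168 CPM in input) and control IgG tumor 3 is the lowest of its group (Cd74 586 CPM), while the 5 control IgG input values of H2-K1 lie between 719 and 918 CPM.

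Class I transcripts did not differ between the endothelial IP fraction and the whole tumor beyond the spread between tumors. H2-K1 (chromosome 17, 34214991 to 34219321, minus strand) had 910, 918, 808, 719 and 855 CPM in control IgG inputs 1 to 5 and 1291, 998, 876, 607 and 607 CPM in the IP libraries of the same tumors. In 6-3-A6 tumors 1 to 5 it had 681, 586, 587, 420 and 2495 CPM in input and 556, 374, 538, 548 and 2035 CPM in IP. The fractions overlapped in both treatment groups, and tumor 5 of the 6-3-A6 group was the highest in each fraction. Within tumors, IP was higher than input in 4 and lower in 6 of 10.

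H2-D1 (chromosome 17, 35481706 to 35486475, plus strand) had 1164, 1096, 1166, 995 and 1164 CPM in control IgG inputs 1 to 5 and 1700, 1244, 1284, 871 and 734 CPM in IP. In 6-3-A6 tumors 1 to 5 it had 1034, 788, 855, 436 and 2358 CPM in input and 898, 470, 876, 890 and 2108 CPM in IP. The fractions overlapped again, and 5 of 10 tumors were higher in IP. The log2 fold change of IP over input, with the tumor as a block, was -0.01 for H2-D1 (95% interval -0.34 to 0.33, edgeR adjusted p = 0.980) and -0.10 for H2-K1 (95% interval -0.36 to 0.17, adjusted p = 0.529). Without the block they were 0.00 (standard error 0.26) and -0.09 (standard error 0.32). Of the 100-base windows of the H2-D1 transcript, 4.64% also occur in other class I genes such as H2-Q6, H2-Q7 and H2-T23, so that part of its reads may not be assignable, whereas H2-K1 shares 0 windows.

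Class II transcripts were lower in IP than in input, at 0.512 (H2-Aa) to 0.671 (H2-Ab1) of the input level for the 6 genes called when the fractions of a tumor were paired. H2-Aa (chromosome 17, 34501718 to 34506797, minus strand) had 1292, 941, 248, 594 and 1472 CPM in control IgG inputs 1 to 5 and 784, 499.5, 120, 552.5 and 605 CPM in IP. In 6-3-A6 tumors 1 to 5 it had 370, 347, 792, 309 and 1991 CPM in input and 129, 167, 339, 187 and 962 CPM in IP. Each of the 10 tumors was lower in IP, although the groups of libraries overlapped. In control IgG input the highest tumor was 5.94 times the lowest for H2-Aa, against 1.28 times for H2-K1 and 1.17 times for H2-D1. In 6-3-A6 input, where tumor 5 was highest for both classes, the same ratio was 6.45 for H2-Aa, 5.93 for H2-K1 and 5.41 for H2-D1, or 5.74, 4.26 and 2.99 without input 4, the lowest for all 3. Control IgG tumor 3 was low in both fractions for H2-Aa and not for class I.

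H2-Ab1 (chromosome 17, 34476663 to 34488393, plus strand), which pairs with H2-Aa, had 1012, 720, 191, 470 and 1181 CPM in control IgG inputs and 825, 695, 128, 442.5 and 689 CPM in IP. In 6-3-A6 tumors it had 248, 249, 596, 263 and 1639 CPM in input and 135, 140, 247, 171 and 1257 CPM in IP. All 10 tumors were lower in IP. The beta chain H2-Eb1 (chromosome 17, 34524841 to 34535648, plus strand, 20.4% overlapped by Gm20513) was also lower in IP in 10 of 10 tumors, with 135 to 960 CPM in control IgG input (median 638) and 69.7 to 560 CPM in IP (median 384). In 6-3-A6 tumors H2-Eb1 had 148 to 1416 CPM in input (median 210) and 82.9 to 721 CPM in IP (median 122). C57BL/6J mice carry no working H2-Ea gene, so that H2-Eb1 mRNA is made there without its partner chain.

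Cd74 had 2131, 2060, 586, 1263 and 2967 CPM in control IgG inputs and 1662, 1197, 387, 1092 and 1742 CPM in IP. In 6-3-A6 tumors it had 779, 789, 1661, 505 and 4168 CPM in input and 432, 502, 858, 532 and 2544 CPM in IP. In the control IgG group tumor 3 was lowest and tumor 5 highest in both fractions, tumor 5 was highest among 6-3-A6 tumors, and the fractions overlapped. The loading chains H2-DMa and H2-DMb1 ranged from 71.1 to 194.5 CPM and from 40.4 to 169 CPM in control IgG input, and from 41.6 to 129.6 CPM and from 27.0 to 117 CPM in IP.

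With the tumor as a block, H2-Aa had a log2 ratio of IP to input of -0.96 (standard error 0.13, edgeR adjusted p = 3.25e-05), H2-Eb1 of -0.80 (standard error 0.12, adjusted p = 0.000117) and H2-Ab1 of -0.58 (standard error 0.12, adjusted p = 0.00161). Cd74 (chromosome 18, 60936920 to 60945724) fell by 0.58 on the log2 scale (standard error 0.12, adjusted p = 0.00109). In the loading complex, H2-DMa (chromosome 17, 34338515 to 34358075, 26.7% overlapped by Brd2 and others) had -0.59 (adjusted p = 0.00374) and H2-DMb1 (chromosome 17, 34372046 to 34379204) had -0.62 (adjusted p = 0.0126). Cd74, H2-DMa and H2-DMb1 were each lower in IP in 9 of 10 tumors, with 6-3-A6 tumor 4, whose input stood apart, as the exception for all 3. Of the transcript windows of H2-DMb1, 13.7% occur in H2-DMb2 as well.

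Thus 6 of 7 class II genes and 0 of 2 class I genes were called lower in IP when input and IP of a tumor were paired, where 26.2% of 14488 genes were called lower. Without the block 0 of 9 members were called, where 40.4% of genes were called in either direction, and H2-Aa, with the smallest adjusted p of the members (standard error 0.43, edgeR adjusted p = 0.0768), was the 1 member with an unadjusted p under 0.05. The log2 fold changes without the block were -0.96 for H2-Aa, -0.83 for H2-Eb1, -0.78 for H2-DMb1, -0.65 for H2-DMa, -0.63 for Cd74, -0.49 for H2-Ab1 and 0.27 for Ciita. Leaving out 6-3-A6 tumor 5 from this fit, H2-Aa (edgeR adjusted p = 0.0284) and H2-DMa (adjusted p = 0.0417) were called, and in the kept tumors alone H2-Aa was (adjusted p = 0.0258). DESeq2 called 0 members without the block. The median log2 fold change over all genes was -0.06 in the unpaired fit, against -0.65 over the 7 class II genes and -0.04 over both class I genes. Input and IP come from one homogenate, so that the pairing is given by the protocol. Without 6-3-A6 tumor 4, the paired fit again called these 6 class II genes lower (-0.97 for H2-Aa to -0.55 for H2-Ab1, highest edgeR adjusted p = 0.00195), where 29.1% of genes were called lower, and neither class I gene (H2-D1 -0.09, adjusted p = 0.557, and H2-K1 -0.13, adjusted p = 0.374).

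**Figure D2:**
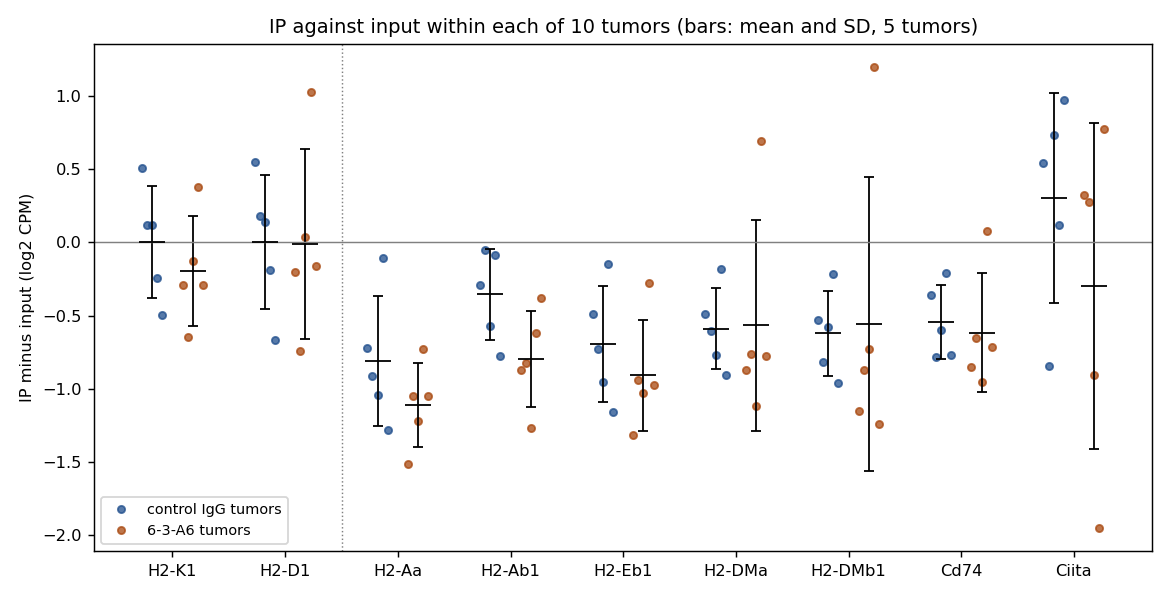
Difference of IP and input in log2 CPM within each tumor for the 9 genes, 1 point per tumor, with the mean and SD of the 5 tumors of each treatment group as bars. H2-K1 and H2-D1 lie on both sides of 0, H2-Aa, H2-Ab1 and H2-Eb1 lie below 0 in all 10 tumors, and the points above 0 for H2-DMa, H2-DMb1 and Cd74 are 6-3-A6 tumor 4.

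The class II to class I difference was then formed within each tumor, from the mean IP minus input of H2-Aa, H2-Ab1 and H2-Eb1 less that of H2-K1 and H2-D1. It was -1.03, -0.72, -0.98, 0.10 and -0.49 log2 units in control IgG tumors 1 to 5 and -0.99, -0.24, -1.13, -1.25 and -0.57 in 6-3-A6 tumors 1 to 5. It was below 0 in 9 of 10 tumors, with control IgG tumor 4 as the exception, whose IP library also had the lowest endothelial sum of the control IgG IP libraries (1535 CPM). The means were -0.62 ± 0.46 (SD, n = 5) for control IgG and -0.84 ± 0.42 (SD, n = 5) for 6-3-A6, and the groups overlapped. Without tumor 4, whose value was the lowest, the 6-3-A6 mean was -0.73 ± 0.40 (SD, n = 4) with all 4 tumors below 0. With B2m carried at 0 as a further class I gene the means were -0.62 and -0.87.

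**Figure D3:**
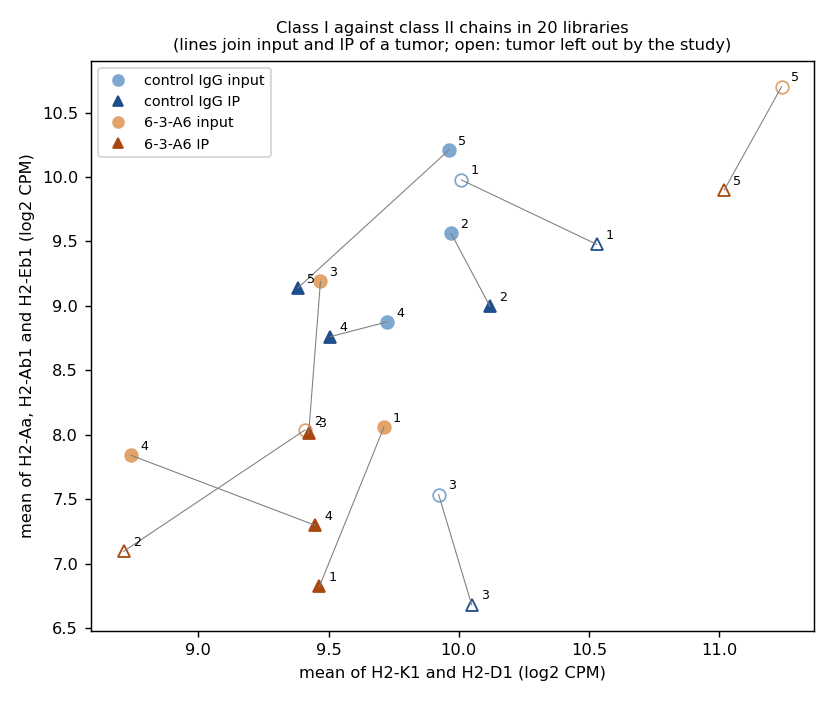
Mean log2 CPM of H2-Aa, H2-Ab1 and H2-Eb1 (vertical) against that of H2-K1 and H2-D1 (horizontal) in 20 libraries, with circles for input, triangles for IP, the tumor number at each point and a line between the fractions of a tumor. The lines run downward from input to IP in each tumor, while sideways moves go in both directions. Control IgG tumor 3 is low in class II (7.54 in input) at a class I level (9.92) close to that of the other control IgG inputs.

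Within each treatment group, class II genes were again the members called. In control IgG tumors, paired by tumor, H2-Aa (log2 fold change -0.81, edgeR adjusted p = 0.00612), H2-Eb1 (-0.70, adjusted p = 0.0136) and Cd74 (-0.54, adjusted p = 0.0402) were called, so 3 of 9 members against 9.73% of all genes called lower. In 6-3-A6 tumors H2-Aa (-1.11, adjusted p = 0.000469), H2-Eb1 (-0.91, adjusted p = 0.00175), H2-Ab1 (-0.79, adjusted p = 0.00237), Cd74 (-0.62, adjusted p = 0.0148) and H2-DMa (-0.59, adjusted p = 0.0445) were called, so 5 of 9 against 19.5%. Without 6-3-A6 tumor 4 H2-DMb1 was called as well (-0.97, adjusted p = 0.000153), where 20.3% of genes were called lower, and without tumor 5 H2-DMa was not (-0.54, adjusted p = 0.111). Without the block 0 members were called in either group by edgeR or DESeq2, and 0 had an unadjusted p under 0.05, where 11.4% and 26.3% of genes were called in either direction. The difference between the treatment groups was tested as an interaction, and 0.0% of genes and 0 members were called by edgeR. At an unadjusted p under 0.05 there were 125 genes, and DESeq2 called 0. In the paired fit the interaction was -0.44 for H2-Ab1 (95% interval -0.93 to 0.05) and -0.20 for H2-K1 (95% interval -0.75 to 0.35), so that differences of these sizes were not resolved.

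Ciita, the coactivator of the class II genes, was not called between IP and input by edgeR, with or without the block. The gene (chromosome 16, 10297923 to 10346282, plus strand) is 53.5% overlapped by Dexi on the opposite strand and had 1450 counts in all 20 libraries together, so that its values are uncertain. It had 9.97, 3.47, 0.683, 2.43 and 4.36 CPM in control IgG inputs 1 to 5 and 14.6, 1.88, 1.21, 2.65 and 8.68 CPM in IP. In 6-3-A6 tumors it had 1.19, 1.29, 3.04, 3.99 and 6.18 CPM in input and 1.52, 1.58, 1.57, 0.948 and 10.7 CPM in IP. Control IgG tumors 1 and 5 and 6-3-A6 tumor 5 were high in both fractions, and 7 of 10 tumors were higher in IP. Its log2 fold change with the block was 0.04 (95% interval -0.55 to 0.62, edgeR adjusted p = 0.920).

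Macrophage markers were lower in IP as well. In the paired fit, where 26.2% of all genes were called lower and 24.8% higher, 11 of 12 macrophage markers were called lower and 0 higher (median log2 fold change -0.74), and of 10 dendritic cell markers 6 were called lower and 2 higher (median -0.70). Of 8 T and NK cell markers 8 were called lower (median -1.03), of 4 measured B cell markers 1 (median -0.68; Ms4a1 held 0 counts), a share close to that of all genes, and all 17 endothelial markers were called higher (median 4.35). Without the block, where 20.8% of all genes were called lower, the counts called lower were 8 of 12 for macrophages, 5 of 10 for dendritic cells, 6 of 8 for T and NK cells and 1 of 4 for B cells. In the paired fit without 6-3-A6 tumor 4 they were 11, 6, 8 and 2, where 29.1% of all genes were. The summed dendritic cell markers were 58.7 to 158 CPM in control IgG input and 61.5 to 169 CPM in IP. In 6-3-A6 tumors they were 49.0 to 146 CPM in input and 46.4 to 143 CPM in IP. The part of these cells in the class II values was not tested. Per 1000 CPM of the summed macrophage markers, the 3 class II chains had 67.7 to 310 CPM in control IgG input and 70.0 to 379.5 CPM in IP, and 95.9 to 334 and 89.7 to 331 CPM in 6-3-A6 tumors, so that the fractions overlapped throughout. The class I chains on the same scale had 164 to 233 CPM in control IgG input and 193 to 523 CPM in IP, and 127 to 321 against 213 to 467 CPM in 6-3-A6 tumors, with medians higher in IP (303 against 185 CPM, and 393 against 199 CPM). Within tumors the class I chains on this scale were higher in IP in 9 of 10 and the class II chains in 6 of 10, or 8 and 5 of 9 without 6-3-A6 tumor 4.

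**Figure D4:**
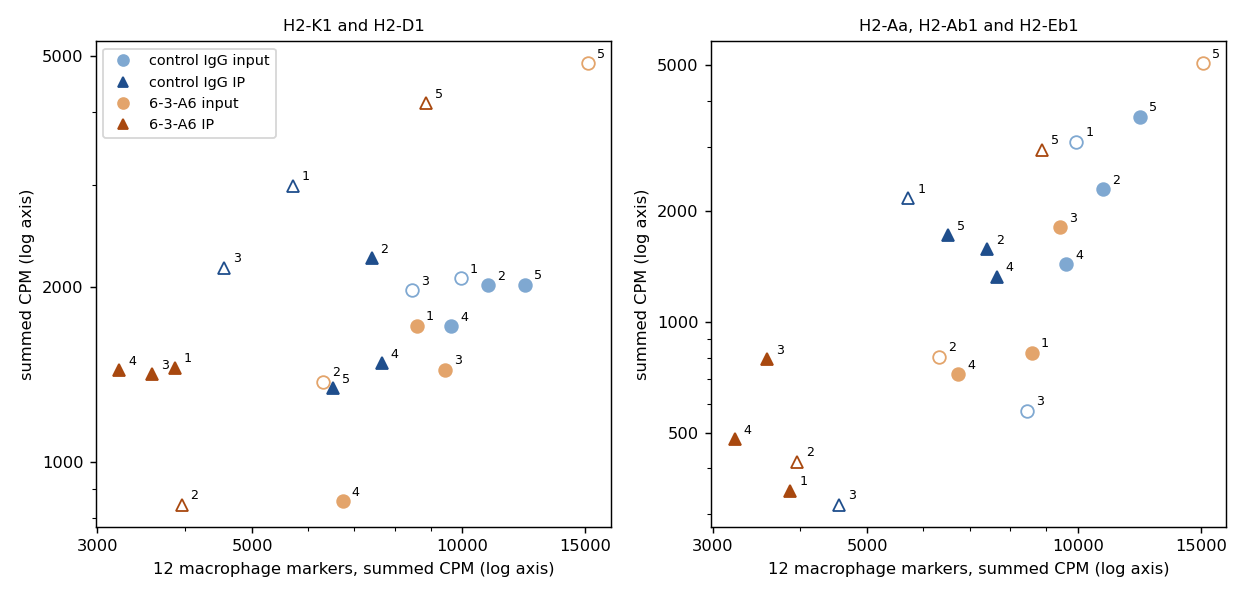
Summed CPM of H2-K1 and H2-D1 (left) and of H2-Aa, H2-Ab1 and H2-Eb1 (right) against the summed CPM of 12 macrophage markers in 20 libraries, on log axes, with circles for input, triangles for IP and the tumor number at each point. In the right panel the IP library of each tumor lies lower and to the left of its input. In the left panel the 6-3-A6 IP libraries 1, 3 and 4 lie at 3226 to 3875 CPM of macrophage markers with class I sums inside the range of the inputs.

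Of 61 other genes of antigen presentation, 53 were tested between IP and input, of which 7 were called higher and 10 lower, and 10 higher and 19 lower with the block (11 and 19 without 6-3-A6 tumor 4). Of all genes, 19.6% were called higher and 20.8% lower, and 24.8% and 26.2% with the block. The largest log2 fold changes among those called were those of the nonclassical class I genes H2-Q6 (1.58, edgeR adjusted p = 0.00554) and H2-Q7 (1.18, adjusted p = 0.0229), which are close copies of each other and of H2-D1 in part, and of the interferon receptor kinase Jak1 (1.18, adjusted p = 3.58e-06). The smallest were those of Ifng, the gene of interferon gamma itself (-1.34, adjusted p = 0.0251), of the endosomal thiol reductase Ifi30 (-1.07, adjusted p = 0.00470) and of Socs1, an inhibitor of interferon signaling (-1.03, adjusted p = 0.0144). Ifng held 424 counts in all 20 libraries together and is 56.2% overlapped by Gm49751, so that its values are uncertain.

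By group, class I peptide supply (Tap1, Tap2, Tapbp, the immunoproteasome and others) had 0 of 12 tested genes called in the unpaired fit, with a median log2 fold change of -0.06, and 2 higher and 2 lower in the paired fit. Class II loading and regulators had 5 of 15 called lower and 1 higher (median -0.42), and 7 lower and 1 higher in the paired fit. Of the ligands of T cell co-stimulation 3 of 6 were called lower, and 5 of 6 in the paired fit, Cd80 and Cd86 among them. Of the interferon gamma axis 4 of 10 were called higher and 2 lower, and 5 and 2 in the paired fit. Of the other class I heavy chains 2 of 10 were called higher and 0 lower, and 2 and 3 in the paired fit. Of all genes 19.6% were called higher and 20.8% lower in the unpaired fit, and 24.8% and 26.2% in the paired fit. The share of these heavy chains called higher was close to that of all genes. Within control IgG tumors 2 of the 53 were called in the unpaired fit (Jak1 and Jak2, higher), and within 6-3-A6 tumors 2 were called higher (Jak1 and Jak2) and 5 lower (the lysosomal protease Ctsl, Cd86, Cd80, Ifi30 and H2-DMb2). Of all genes 11.4% and 26.3% were called in these fits. With the block, 5 were called higher and 7 lower in control IgG tumors, where 12.7% and 9.73% of all genes were, and 6 higher and 15 lower in 6-3-A6 tumors, where 18.8% and 19.5% were (8 and 15 without tumor 4, where 22.3% and 20.3% were).

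Between treatments, class II was lower in 6-3-A6 than in control IgG in the 6 IP libraries that the study kept, and class I was not called. H2-Ab1 had 695, 442.5 and 689 CPM in control IgG IP 2, 4 and 5 and 135, 247 and 171 CPM in 6-3-A6 IP 1, 3 and 4. H2-Aa had 499.5, 552.5 and 605 against 129, 339 and 187 CPM, and H2-DMa 99.9, 104 and 104 against 40.0, 48.6 and 42.2 CPM. In all 7 class II genes the 3 control IgG libraries lay above the 3 of 6-3-A6 without overlap, as they did in 10.7% of all tested genes. The same held for H2-K1, with 998, 607 and 607 CPM against 556, 538 and 548 CPM. H2-D1, with 1244, 871 and 734 CPM against 898, 876 and 890 CPM, overlapped.

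The log2 fold change of 6-3-A6 over control IgG in these libraries was -1.75 for H2-Ab1 (standard error 0.28, edgeR adjusted p = 0.0178), -1.51 for H2-Eb1 (standard error 0.31, adjusted p = 0.0262), -1.37 for H2-Aa (standard error 0.32, adjusted p = 0.0390), -1.36 for H2-DMb1 (standard error 0.24, adjusted p = 0.0188) and -1.26 for H2-DMa (standard error 0.17, adjusted p = 0.0168). These 5 of 7 class II genes were called lower, where 2.04% of 13999 genes were. Cd74 (-1.18, adjusted p = 0.0572) and Ciita (-1.76, adjusted p = 0.0991) did not pass in edgeR. Both passed in DESeq2 (adjusted p = 0.00185 and 0.0156) and in edgeR without the filter on low counts (adjusted p = 0.00144 and 7.22e-05). Ciita also passed without control IgG IP 2 (adjusted p = 0.0338), and without control IgG IP 5 its log2 fold change was -0.75 (adjusted p = 0.342). H2-K1 had -0.46 (95% interval -1.001 to 0.09, adjusted p = 0.346) and H2-D1 had -0.12 (95% interval -0.66 to 0.42, adjusted p = 0.835). The libraries were kept by the study on the strength of a principal component analysis of these data, so that the p-values are not those of a comparison fixed beforehand. The log2 fold changes of the 5 genes stayed between -2.01 and -1.10 when any 1 library was left out, and the calls did not hold in each case. Without 6-3-A6 IP 3 all 5 calls were lost (lowest adjusted p = 0.0574), without 6-3-A6 IP 4 only H2-DMa was called (adjusted p = 0.0351), and without 6-3-A6 IP 1 or control IgG IP 4 both H2-Aa and H2-Eb1 were lost (adjusted p = 0.0960 and 0.0621, and 0.0823 and 0.0512). Without control IgG IP 2 or 5 H2-Aa alone was lost (adjusted p = 0.0512 and 0.0718).

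The difference was smaller when all 10 IP libraries were used. Among the libraries left out, control IgG IP 3 had 128 CPM of H2-Ab1, below each 6-3-A6 library, and 6-3-A6 IP 5 had 1257 CPM, above each control IgG library, while control IgG IP 1 had 825 and 6-3-A6 IP 2 had 140 CPM. With all 10 IP libraries, the difference on the log2 scale was -0.51 in H2-Ab1 (standard error 0.66), -0.52 in H2-Aa (standard error 0.58) and -0.11 in H2-K1 (standard error 0.44), and the 7 class II genes lay between -0.83 and -0.32. By edgeR 0.0% of 13602 genes were called, 292 had an unadjusted p under 0.05, and DESeq2 called 0. Leaving out 6-3-A6 IP 5 alone moved H2-Ab1 to -1.70 (adjusted p = 0.401) and H2-Aa to -1.34 (adjusted p = 0.521).

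In input the class II genes had log2 fold changes of -0.49 to -0.21 over all 10 libraries, H2-K1 had 0.16 (standard error 0.42) and H2-D1 -0.05 (standard error 0.35). By edgeR 0.0% of 13683 genes were called, 180 had an unadjusted p under 0.05, and DESeq2 called 0. Without 6-3-A6 input 5 the class II genes had -1.45 (H2-DMb1) to -0.87 (Ciita), with -1.09 for H2-Ab1 and -1.01 for H2-Aa, and H2-K1 had -0.57 and H2-D1 -0.52 (edgeR adjusted p = 0.835 each). Without 6-3-A6 input 4 the class II genes had -0.56 (Ciita) to 0.02 (Cd74). When input was restricted to the 6 tumors whose IP library was kept, a choice made after the data were seen, the log2 fold change was -1.12 for H2-Ab1 (standard error 0.46), -1.05 for H2-Aa (standard error 0.46), -1.65 for H2-DMb1 (standard error 0.49) and -0.58 for H2-K1 (standard error 0.27), with adjusted p = 0.931 by edgeR for each. Without 6-3-A6 input 4 these values were -0.90, -0.78, -1.23 and -0.39. In the 6 kept tumors the class II values of the whole tumor thus lay on the same side as those of IP. The treatment by fraction interaction given above was fitted over all 10 tumors, a different set, and called 0 members and 0.0% of genes.

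**Figure D5:**
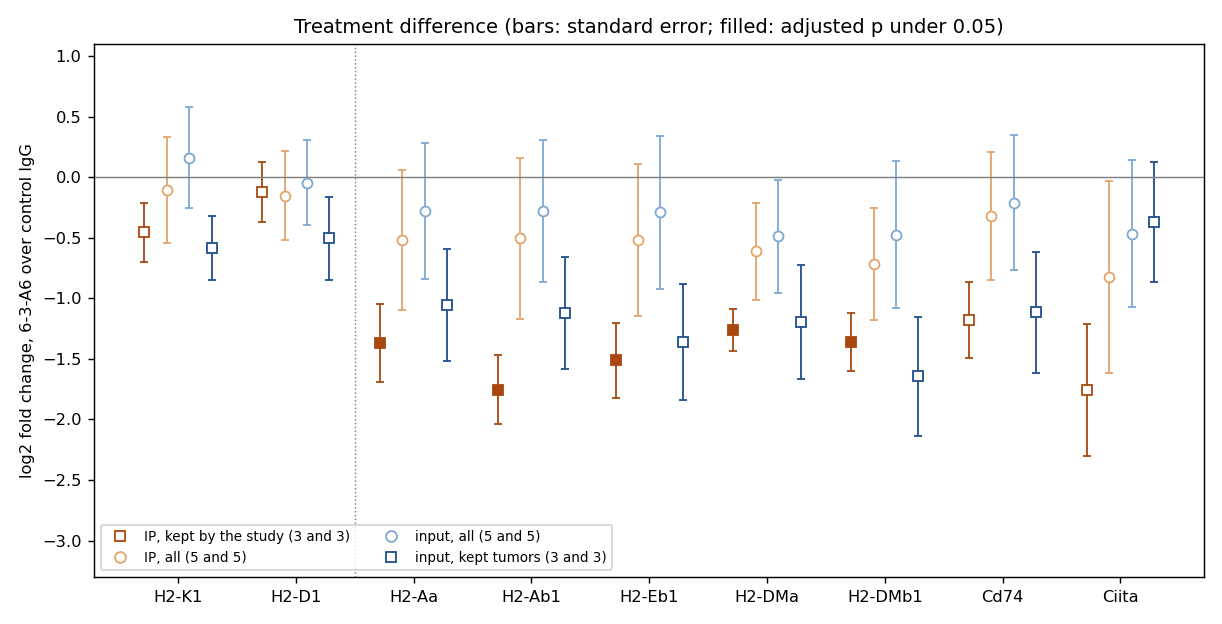
Log2 fold change of 6-3-A6 over control IgG (vertical, bars for 1 standard error) of the 9 genes in the 6 kept IP libraries, all IP libraries, all input libraries and the inputs of the kept tumors, with filled symbols for an edgeR adjusted p under 0.05. The filled symbols are the 5 class II genes between -1.75 and -1.26 in the kept IP libraries. For these genes the inputs of the same tumors lie between -1.65 and -1.05, and the symbols over all libraries lie nearer to 0.

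The marker sums of macrophages, dendritic cells and endothelium differed between the groups of this comparison. In the kept IP libraries the macrophage marker sum was 6529 to 7657 CPM in control IgG and 3226 to 3875 CPM in 6-3-A6, with 6 of 12 markers called lower and 0 higher. The endothelial sum was 1535 to 4953 CPM in control IgG and 5007 to 6299 CPM in 6-3-A6, with 6 of 17 called higher and 0 lower, and the dendritic sum was 104 to 169 and 60.2 to 70.8 CPM, with 3 of 10 called lower. Of all genes 2.04% were called lower and 2.57% higher in these libraries. None of these sums overlapped between treatments. Of all tested genes taken singly, 10.7% were lower and 13.6% higher in 6-3-A6 without overlap. Per 1000 CPM of macrophage markers the class II chains had 174 to 264 CPM in control IgG and 89.7 to 220 CPM in 6-3-A6, which overlapped, whereas the class I chains had 193 to 303 and 375 to 446 CPM, which did not. Their part in the treatment difference was not tested.

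Of the 61 other genes of antigen presentation, 52 were tested in the kept IP libraries and 8 were called lower and 0 higher, where 2.04% and 2.57% of all genes were. Those with the smallest adjusted p were the class I-like gene H2-M2 (log2 fold change -2.67, edgeR adjusted p = 0.0168), Ifi30 (-1.38, adjusted p = 0.0178), the co-stimulatory ligands Icosl (-1.14, adjusted p = 0.0199), Cd80 (-1.06, adjusted p = 0.0204) and Cd86 (-1.003, adjusted p = 0.0301), and Erap1, the aminopeptidase that trims class I peptides (-1.16, adjusted p = 0.0204). Of the interferon gamma axis 0 of 9 were called (median -0.06). Over all IP libraries and in input 0 of 51 were called by edgeR, as for all genes.

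Across libraries the class II genes varied together more closely than they did with class I. After the mean of each group was subtracted, the 15 pairs of class II genes without Ciita had Pearson r of 0.904 to 0.996 over 20 libraries (median 0.951), and H2-K1 with H2-D1 had 0.954. Between class I and these class II genes r was 0.548 to 0.752 (median 0.684), and Ciita had 0.649 to 0.827 with the class II genes. The 20 points are 10 tumors seen in 2 fractions and share depth and tumor composition, and these values are descriptions. Over 19 libraries, without 6-3-A6 input 4, r was 0.959 to 0.996 among the class II genes, 0.514 to 0.725 between the classes and 0.842 to 0.872 for Ciita with the class II genes.

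The genes most like the mean of H2-K1 and H2-D1 were Tapbp (r = 0.959), Tap1 (0.953) and Tap2 (0.951), which encode the class I peptide loading bridge and transporter and lie in the same region of chromosome 17, then Ctsw (0.942) and the class I gene H2-Q4 (0.936). Those most like the mean of H2-Aa, H2-Ab1 and H2-Eb1 were Plbd1 (r = 0.923), the sterol hydroxylase gene Cyp27a1 (0.921), H2-M2 (0.918), Cds1 (0.918) and Gpr132 (0.911), over 20 libraries in each case. These lists depended on 6-3-A6 input 4: without it 2 of the 5 genes were shared for each class, Tapbp and H2-Q4 for class I and H2-M2 and Plbd1 for class II. The class II mean had a median r of 0.642 with 12 macrophage markers, 0.509 with 10 dendritic cell markers and 0.0448 with 17 endothelial markers. The class I mean had 0.529, 0.409 and 0.492 with the same lists. Without 6-3-A6 input 4 these medians were 0.667, 0.644 and -0.0341 for class II and 0.522, 0.574 and 0.505 for class I.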

How the data were processed

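RNA of 20 libraries (input and IP of 10 tumors) was sequenced with single reads of 100 bases. The authors aligned reads with STAR 2.7.4a and counted them with featureCounts (1.5.2 and 2.0.1 are both listed in the submitters' processing notes), and the deposited table holds raw counts per gene. For 55789 of 55789 genes with one span the deposited length equals that span, so introns were counted. Coordinates are those of GRCm39 although the methods name mm10, and strandedness is not given in the sources used here. A deposited table of the 6 kept IP libraries holds a normalized signal, which the authors made by dividing counts by 1 constant per library. It was used only to identify those libraries. The deposited tables of the authors' own comparisons hold their fold changes and p-values and were not used.

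Counts were fitted with edgeR 4.0.16 (R 4.3.3; TMM, filterByExpr over 4 groups, quasi-likelihood F-test, Benjamini-Hochberg over all genes tested), with an adjusted p under 0.05 called. Log2 CPM used a prior count of 2. The fit without the block was tested on data simulated without a tumor effect, and the paired fit was not tested in this way. Groups followed the sample titles. Mice were implanted in 1 fat pad each, so tumors with different numbers were taken as separate mice, and n counts tumors. Input and IP come from 1 homogenate per tumor, which pairs them: the correlation of their deviations was 0.162 to 0.699 in 8 tumors, 0.0464 in control IgG tumor 4 and -0.0777 in 6-3-A6 tumor 4. Counts of calls for IP against input are given with and without the tumor as a block. No pair of replicates agreed within sampling noise (median chi-square at least 1.96 per gene, 0.455 expected).

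The members and all lists were chosen with earlier results of these data known. All 10 members are named, and of the other 61 antigen presentation genes, for IP against input the 3 highest and 3 lowest log2 fold changes among those called, and in other comparisons the 6 smallest adjusted p. Genes most like each class were the 5 with the highest Pearson r over 20 libraries, after group means were subtracted. The class score had been designed with B2m, which holds 0 counts. Alternatives were DESeq2 1.42.0, its size factors, no filter on low counts, the block, leaving out each library, only the kept tumors, and, added after seeing the data, the block without 6-3-A6 tumor 4 or 5, and levels and correlations without 6-3-A6 input 4.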

Additional observations from a re-analysis of the deposited data

Results flagged for a closer look

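In 56 groups of 5 values, the most distant value was compared with its nearest neighbor, and 16 lay further away than Dixon's limit of 0.71 of the group's range, where chance gives about 1 in 20. In 6-3-A6 IP 5 all 9 measured genes were the highest of the group by this measure: H2-K1 had 2035 CPM, H2-D1 2108, H2-Aa 962, H2-Ab1 1257, H2-Eb1 721, H2-DMa 142, H2-DMb1 109.7, Cd74 2544 and Ciita 10.7 CPM. The input of the same tumor was marked for 5 genes, with H2-K1 at 2495 CPM, H2-Aa at 1991, H2-Ab1 at 1639, H2-Eb1 at 1416 and H2-DMb1 at 259.5 CPM. This tumor also had the highest macrophage sum of its treatment in both fractions (15110 CPM in input, where the next was 9436, and 8879 CPM in IP, where the next was 3960) and the highest T and NK cell sum (372 CPM in input, where the next was 136, and 204 CPM in IP, where the next was 31.8). The part of these cells in its values was not tested, and the study left its IP library out. The 14 marks in this tumor come from 1 tumor.

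In 6-3-A6 tumor 4 the IP minus input difference was 0.69 log2 units for H2-DMa and 1.20 for H2-DMb1, whereas the other tumors of the group were below 0. The input of this tumor had the lowest values of all libraries for both genes, 26.1 and 15.2 CPM, and is the library with the TMM factor of 0.680.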

How the results depend on the processing

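Of 926 alternative values of members, 820 kept direction and call, 15 lost a call, 44 gained one and 47 changed sign, and none of those that changed sign was called on either side. With the tumor as a replicate block, control IgG calls moved to 3249, H2-D1 to -0.0058 over both groups, Ciita to -0.26 in 6-3-A6 tumors, and the interaction to 0.0015 for H2-DMa and 0.014 for H2-DMb1. Without a filter on low counts, H2-D1 in 6-3-A6 tumors was 0.0098 and the kept IP libraries gave 1459 calls against 646, and DESeq2 gave 1190. With only the kept tumors, IP against input gave 3416 calls (607 in control IgG). Ciita was then -0.28 over both groups and -0.997 in 6-3-A6 tumors, H2-K1 and H2-D1 were -0.17 and -0.19 in control IgG, H2-D1 was 0.20 in 6-3-A6, and the interaction was 0.13 for H2-K1, 0.39 for H2-D1 and 0.30 for H2-DMb1. H2-K1 in input moved to -0.58 in the kept tumors, and to -0.39 there without 6-3-A6 input 4, where 7 genes were called, none of them a member. With the block and without 6-3-A6 tumor 4, H2-D1 was -0.093 over both groups and 6225 genes were called in 6-3-A6 tumors. Without tumor 5, Ciita was -0.065 over both groups, and in 6-3-A6 tumors H2-D1 was 0.025 and Ciita -0.59. These 4 alternatives were chosen after seeing the data. The causes were not tested.

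Leaving out 1 library or tumor gave these ranges. In the kept IP libraries calls were 9 (without 6-3-A6 IP 3) to 653, and H2-D1 was -0.27 to 0.15. Over all IP libraries H2-K1 was -0.82 to 0.075 and H2-D1 -0.59 to 0.032. In input H2-K1 was -0.57 to 0.35, H2-D1 -0.52 to 0.16, Cd74 -0.96 to 0.044 and Ciita -0.87 to 0.15. For IP against input, H2-D1 was -0.076 to 0.060 and Ciita -0.032 to 0.48 over both groups. In control IgG tumors H2-K1 was -0.095 to 0.17, H2-D1 -0.097 to 0.21 and calls 770 (without tumor 3) to 2322, and in 6-3-A6 tumors H2-D1 was -0.17 to 0.032 and Ciita -0.72 to 0.46. The interaction was -0.27 to 0.036 for H2-D1 and -0.42 to 0.12 for H2-DMb1.

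Treatment groups share replicate numbers only as names (correlations -0.326 to 0.366). With the number as a replicate block, 0 genes were called over all IP libraries and in input by edgeR, and H2-K1 in input was -0.20. No paired analysis was possible because the kept IP libraries share only number 4. The class score moved by less than its SD under each alternative, to -0.47 and -0.63 with all 7 class II genes. With 3 kept libraries a group, precision is limited.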

Other observations

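Several antigen presentation genes held 0 counts in all 20 libraries, as B2m did: H2-Q1, H2-T10, H2-T23, H2-T24, Psmb10, Tapbpl and H2-Oa. The macrophage marker Itgam and the B cell marker Ms4a1 held 0 as well. Their spans lie at least 99.9% within those of other genes, except that of H2-Q1, which overlaps none, and whether the 0 counts reflect expression was not tested.

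In the kept IP libraries 2.04% of all genes were called lower and 2.57% higher between treatments. The log2 fold change of 6-3-A6 over control IgG was negative for 6 of 6 fibroblast markers (2 called lower by edgeR, median -1.01), 6 of 6 mural cell markers (1 called lower, median -0.88), 6 of 6 epithelial markers (2 called lower, median -0.98) and 8 of 8 T and NK cell markers (0 called, median -0.66). It was positive for 17 of 17 endothelial markers (6 called higher, median 0.93), against a median of -0.05 over all genes.

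The T and NK cell sum was 52.0 to 136 CPM in 4 of the 6-3-A6 inputs and 372 CPM in that of tumor 5, against 58.7 to 114 CPM in control IgG input. Across 20 libraries, with group means subtracted, the class I mean had a median r of 0.687 with 8 T and NK cell markers and the class II mean 0.635 (0.757 and 0.664 without 6-3-A6 input 4), as descriptions over libraries that share depth and tumor.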
